A study of Drosophila melanogaster with 12 samples.

Results

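The insect cuticle is a layer of chitin fibres held in a matrix of structural proteins, and the genes for these proteins were followed here in heads of adult Drosophila melanogaster. Most of them encode CPR proteins, named for the Rebers and Riddiford consensus, a stretch that binds chitin. The Ccp84 genes are CPR genes that lie together at cytological position 84A, and the Tweedle (Twdl) genes form a separate family, named for the short, squat body of mutant animals. Epidermal cells secrete these proteins during development, each gene with its own stages and body regions, and in the fly eye the corneal lens is made of the same kind of material. All genes whose symbol starts with Cpr and a digit, with Ccp84 or with Twdl were taken, whatever their values. They numbered 103 of the 17816 genes measured, 70 of them Cpr, 7 Ccp84 and 26 Twdl genes.

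The libraries were made from heads with the brain, in 4 groups of 3. Knockdown flies carried 1 copy each of UAS-dicer2, of UAS-dppil4 RNAi and of the tim(UAS)-Gal4 driver. Control flies carried the same dicer2 and driver copies without the hairpin. The driver follows the clock gene timeless, whose cells include clock neurons, photoreceptors and glia. Whether epidermal cells expressed the hairpin is not given in the labels. Flies lived in 12 h of light and 12 h of dark, and were taken on day 4 at ZT16, in the dark, or at ZT8, in the light (ZT counts hours from lights on). The labels do not say whether libraries came from separate collections, and p-values then measure only the spread between these libraries.

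Library totals were 25844821 to 31848667 estimated reads at ZT16 and 36885481 to 37676778 at ZT8. CG5808, the gene of dPPIL4, stood at 2.63 to 3.21 TPM in knockdown heads and 3.74 to 4.46 TPM in control heads at ZT16, and at 2.12 to 3.33 TPM in knockdown heads and 3.68 to 4.14 TPM in control heads at ZT8. TPM scales the transcripts of a library to a fixed total and is a level per unit of transcript length. The fall of CG5808 passed the test at ZT16 (edgeR adjusted p = 0.0427) and not at ZT8 (edgeR adjusted p = 0.188). All 5 neuron, 5 photoreceptor and 3 glia markers had reads. Replicate 1 of control ZT16 stood apart: its 5 midgut markers summed to 1402 TPM and its 8 ovary and eggshell markers to 1171 TPM, against at most 34.8 and 22.2 TPM in the other 11 libraries.

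Adult heads expressed a minority of the cuticle protein genes. With a level of at least 1 TPM in all 3 libraries of at least 1 group as the criterion, 28 of 103 were expressed (27.2%), against 9793 of all 17816 genes (55.0%). The share was 24 of 70 for the Cpr genes, 1 of 7 for the Ccp84 genes and 3 of 26 for the Twdl genes. Of these 28, 22 met the criterion in all 4 groups and 6 in 1 to 3 groups, and 14 reached at least 10 TPM in every library of a group. The groups held 25 (knockdown ZT16), 25 (control ZT16), 25 (knockdown ZT8) and 24 (control ZT8) expressed members. Another 60 members had reads below the criterion, and 15 had no read in any library (14.6%, against 13.9% of all genes). For these 15, the 12 libraries together allow a level of up to 0.00755 CPM (counts scaled to the library total), a limit of 3 reads that covers counting error only.

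**Figure D1:**
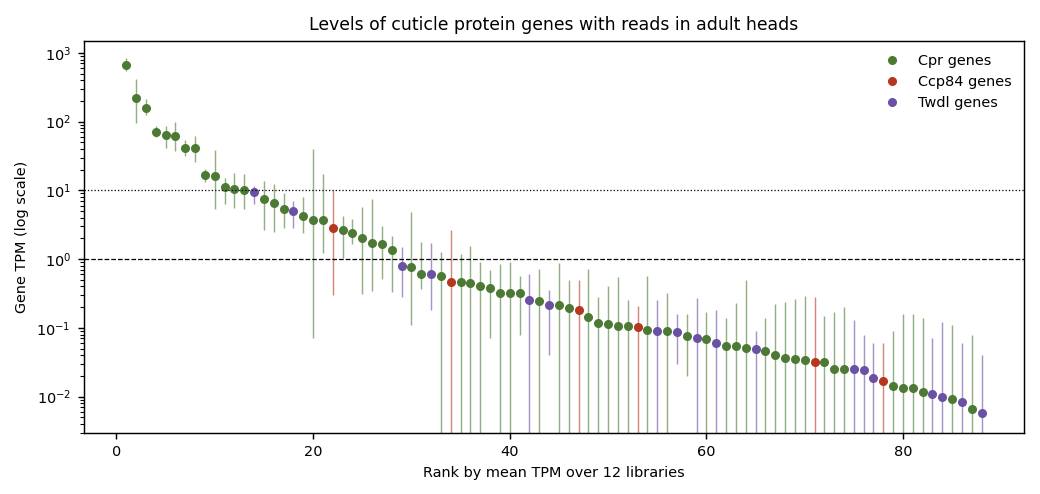
Each point is the mean TPM over 12 libraries of 1 cuticle protein gene with reads, ordered by rank, on a log axis, and the line through it spans its lowest to highest library. The dashed line marks 1 TPM and the dotted line 10 TPM; Cpr65Au leads, and most Twdl and Ccp84 genes lie below the dashed line.

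Cpr65Au (chromosome 3L, 6131242 to 6132109, dm6), a CPR gene, was the most abundant member. Its level was 834, 786 and 782 TPM in knockdown ZT16 heads, 543, 593 and 610.1 TPM in control ZT16 heads, 759.95, 692 and 611 TPM in knockdown ZT8 heads, and 641, 553 and 553 TPM in control ZT8 heads. It ranked 232nd by mean TPM among all 17816 genes, and alone it made up 35.8% to 54.7% of the summed TPM of all members. An antisense gene, asRNA:CR46005, covers 93.3% of its exon bases, and the sources used here do not say whether reads were assigned by strand. The antisense gene itself averaged 0.99 TPM.

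Cpr72Ec (chromosome 3L, 16365894 to 16367340), known as a component of the corneal lens, came next. It had 93.9, 95.6 and 103 TPM in knockdown ZT16 heads, 186, 218 and 195 TPM in control ZT16 heads, 215, 207 and 201 TPM in knockdown ZT8 heads, and 339, 417 and 404 TPM in control ZT8 heads. Cpr67B (chromosome 3L, 9404797 to 9406174) averaged 134 ± 7.48 TPM in knockdown ZT16 heads, 131 TPM in control ZT16 heads, 163 ± 16.2 TPM in knockdown ZT8 heads and 193 ± 36.0 TPM in control ZT8 heads (SD, n = 3 each). Cpr65Au, Cpr72Ec and Cpr67B together took 66.9% to 76.7% of the members' TPM. The sum over all members was 1485 ± 64.6 TPM in knockdown ZT16 heads, 1306 ± 50.8 TPM in control ZT16 heads, 1475 ± 132 TPM in knockdown ZT8 heads and 1546 ± 16.6 TPM in control ZT8 heads (SD, n = 3 each).

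The next members formed a group of 5 between 25.8 and 98.2 TPM in every library. Cpr57A (chromosome 2R, 20548368 to 20550117) ranged over the 12 libraries from 58.8 to 85.1 TPM, Cpr49Ag from 41.6 to 84.9 TPM, Cpr49Ae from 37.9 to 98.2 TPM, Cpr62Bb from 31.8 to 54.3 TPM and Cpr47Ee from 25.8 to 61.1 TPM. Every exon base of Cpr57A is shared with Obp57d, an odorant-binding protein gene on the same strand, so the split of reads between these genes was decided by the authors' estimation. Below them, Cpr73D, Cpr100A, Cpr60D, Cpr97Eb, Cpr11B and TwdlG passed 10 TPM in all libraries of a group. TwdlG (chromosome 3R, 4248723 to 4251341) was the most abundant Tweedle gene, at 6.32 to 11.65 TPM, and the other expressed Tweedle genes were TwdlT and TwdlE. Exons of lectin-28C, which averaged 86.5 TPM, lie opposite 71.9% of the exon bases of TwdlE, and reads of the 2 genes cannot be told apart if strand was not used.

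By chromosome arm, 2R held 11 expressed genes among 22 members, against 55.3% of all genes of that arm, 3L 9 among 35, against 53.7%, and 3R 6 among 32, against 57.5%. Arm 2L held 1 among 6, against 49.8%, and X 1 among 8, against 60.4%. Differences between arms and clusters were not tested. In the Cpr49A cluster 4 of 8 genes were expressed (Cpr49Aa, Cpr49Ae, Cpr49Af and Cpr49Ag), in the Cpr47E cluster 3 of 7 (Cpr47Ea, Cpr47Ee and Cpr47Ef) and in the Cpr62B cluster 3 of 3. The Cpr65A cluster had 1 expressed gene of 7, which was Cpr65Au, the Ccp84A cluster 1 of 7, which was Ccp84Ag, and the Cpr64A cluster none of 4. Neighbouring genes could therefore differ widely, as Cpr65Au did from Cpr65Ax1 and Cpr65Ax2, which had no reads. How reads shared by similar genes were assigned was not examined.

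The criterion cut through a continuous range. In its best group, the lowest library was at 1.87 TPM for Cpr92F, 1.59 TPM for Cpr51A and 1.31 TPM for TwdlE, just inside. Just outside were Cpr78Ca at 0.85 TPM, Cpr49Ah at 0.77 TPM and Cpr64Ad at 0.62 TPM. Members without reads included Ccp84Af, Cpr47Ed, Cpr64Ab, TwdlH, TwdlJ and TwdlK. The number expressed was 33 at a cut of 0.5 TPM, 25 at 2 TPM and 26 at 1 CPM.

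**Figure D2:**
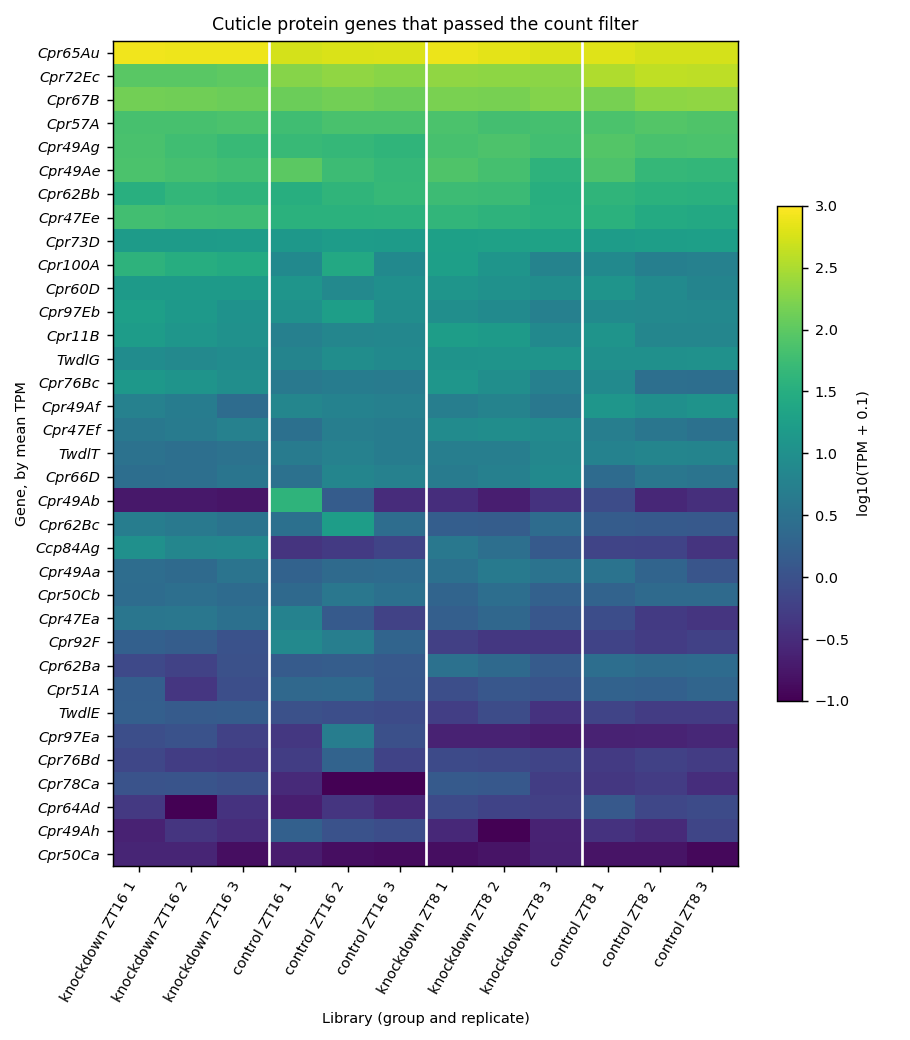
Rows are the 35 cuticle protein genes that passed the filter on counts, ordered by mean TPM, columns are the 12 libraries in their 4 groups, and colour is log10(TPM + 0.1). Cpr65Au at the top is bright throughout, and Cpr49Ab stands out in replicate 1 of control ZT16, at 40.4 TPM.

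Within a group the members did not vary equally. The coefficient of variation over 3 libraries, as the median of the 4 groups, was 4.17% for Cpr73D, 4.37% for TwdlG and 6.60% for Cpr72Ec, and 36.1% for Cpr100A and 41.4% for Cpr47Ea. Many expressed members were high or low in the same library. Replicate 1 of control ZT8 was the highest of its group for 19 of 28 expressed members (67.9%), against 18.6% of all 10717 tested genes. By TPM, the same library was the lowest of its group for 70.9% of all tested genes and 28.6% of expressed members. Replicate 3 of knockdown ZT8 was the lowest of its group for 18 of 28 expressed members (64.3%), against 32.6% of all tested genes. Cpr11B was high in the first and low in the second of these libraries: it had 17.0, 15.2 and 7.74 TPM in knockdown ZT8 heads and 11.5, 6.72 and 6.81 TPM in control ZT8 heads.

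In control ZT16, members were at least 3 times the other replicates in replicate 1 (Cpr49Ab at 40.4 TPM against at most 1.35, and Cpr47Ea at 5.77 TPM against at most 1.24) and in replicate 2. In replicate 2 these were Cpr100A at 25.8 TPM against at most 7.93, Cpr62Bc at 17.0 TPM against at most 2.95, Cpr97Ea at 4.86 TPM against at most 0.84, Ccp84Ab at 2.66 TPM against at most 0.22 and Cpr76Bd at 1.79 TPM against at most 0.53. Replicate 1 is the library with the midgut and eggshell markers. Replicate 2 held lower sums of them, 34.8 TPM for midgut and 22.2 TPM for ovary and eggshell, against at most 9.17 and 5.02 TPM in the other 10 libraries. Their part in the levels of these members was not tested.

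Differences between groups were tested with edgeR on gene counts over all 10717 genes that passed the filter, and called at a Benjamini-Hochberg adjusted p under 0.05. Of the members, 35 passed the filter: all 28 expressed ones and 7 below the criterion. In bulk heads, fewer cells of a type and less RNA per cell cannot be told apart. Fold changes are from counts scaled by TMM. The median of all genes on log2(TPM + 0.1) shifted by up to -0.14 relative to that scale, so TPM values set side by side can differ from the fold change beside them. The 5 photoreceptor markers, of which ninaE and Arr2 make up most, summed in knockdown heads to 39143 to 43262 TPM against 46609 to 54396 TPM in control heads at ZT16 and to 41708 to 45229 TPM against 51103 to 61398 TPM at ZT8. The 4 muscle markers summed to 1022 to 1111 TPM in knockdown heads against 767 to 957 TPM in control heads at ZT16, and to 697 to 928 TPM against 594 to 647 TPM at ZT8. The 957 TPM was in replicate 1 of control ZT16, the library with midgut and eggshell markers. It held 139 TPM of the muscle marker Act88F and 32.1 TPM of TpnC4, against at most 16.1 and 0.81 TPM in any other library. The 4 fat body markers summed to 10286 to 12175 TPM in knockdown heads against 8825 to 13094 TPM in control heads at ZT16, and to 10044 to 18297 TPM against 6985 to 9189 TPM at ZT8. The 5 neuron markers summed to 1045 to 1211 TPM against 1029 to 1209 TPM at ZT16, and to 1075 to 1105 TPM against 1214 to 1431 TPM at ZT8. At ZT16, 1 of 5 tested photoreceptor markers was called lower in knockdown heads (ninaE). Higher were 1 of 5 tested neuron markers (Syt1) and 2 of 3 tested muscle markers (Mhc and Mlc2). Over all tested genes, 11.2% were called higher and 11.0% lower at ZT16. At ZT8, 2 of 5 tested photoreceptor markers (ninaE and trp) and 4 of 5 tested neuron markers (elav, Syt1, brp and para) were called lower. Higher were 2 of 3 tested muscle markers (Mhc and Mlc2) and 1 of 4 tested fat body markers (Yp1). Over all tested genes, 8.84% were called higher and 6.76% lower at ZT8. The 3 glia markers summed to 171 to 194 TPM in knockdown heads against 161 to 184 TPM in control heads at ZT16. At ZT8 they summed to 129 to 160 TPM against 162 to 179 TPM, and none was called at either time. Of 2 tested midgut markers, Jon99Cii was called lower in knockdown heads at ZT16, with 476 TPM in replicate 1 of control ZT16. The part of these cell types in the results on members was not tested.

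The first comparison set knockdown heads against control heads in the dark phase. The genotypes differ by the hairpin transgene. Loss of dPPIL4 therefore cannot be told apart from other effects of that transgene or of genetic background, here and below. At ZT16, 10 of the 35 tested members were called, against 22.2% of all tested genes. In knockdown heads 5 were higher, against 11.2% of all tested genes, and 5 lower, against 11.0%. The median log2 fold change was 0.11 over the tested members and -0.02 over all tested genes. Ccp84Ag, Cpr78Ca, Cpr11B, Cpr47Ee and Cpr65Au rose, and Cpr49Ab, Cpr49Ah, Cpr92F, Cpr72Ec and TwdlT fell.

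Ccp84Ag (chromosome 3R, 6686728 to 6688039), a CPR gene of the 84A cluster, had 10, 6.71 and 6.91 TPM in knockdown heads at ZT16 and 0.30, 0.38 and 0.57 TPM in control heads. All knockdown libraries lay far above all control libraries, and only the knockdown groups held it above 1 TPM. It rose by a log2 fold change of 4.27 ± 0.44 (SE), a fold of 19.3 (edgeR adjusted p = 9.26e-05). Cpr72Ec had 93.9, 95.6 and 103 TPM in knockdown heads against 186, 218 and 195 TPM in control heads, with no overlap. It fell to 0.508 times the control level, a log2 fold change of -0.98 ± 0.058 (edgeR adjusted p = 1.11e-06).

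Among the abundant members, Cpr65Au was higher in every knockdown library at ZT16 than in any control library. Its log2 fold change was 0.51 ± 0.11, a fold of 1.43 (edgeR adjusted p = 0.00787). Cpr47Ee (chromosome 2R, 11265126 to 11266856) had 61.1, 57.8 and 54.8 TPM in knockdown heads and 36.2, 36.2 and 37.1 TPM in control heads. The groups were well apart, with a log2 fold change of 0.72 ± 0.14 (edgeR adjusted p = 0.00628). TwdlT (chromosome 3R, 27049220 to 27051004), a Tweedle gene, had 3.12, 2.84 and 3.16 TPM in knockdown heads and 4.44, 5.69 and 4.76 TPM in control heads. It fell without overlap, by 0.65 ± 0.14 on the log2 scale (edgeR adjusted p = 0.00732).

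Cpr92F (chromosome 3R, 20669571 to 20672821) had 1.58, 1.42 and 0.93 TPM in knockdown heads at ZT16, against 7.44, 4.98 and 1.87 TPM in control heads. Control replicate 3 lay close to the knockdown libraries, and the groups did not overlap. The log2 fold change was -1.81 ± 0.41 (edgeR adjusted p = 0.0105), and the call ended in a fit of the 6 ZT16 libraries alone (edgeR adjusted p = 0.0697). Cpr78Ca (chromosome 3L, 21291860 to 21292800), a member under the expression criterion, had 0.97, 1.01 and 0.85 TPM in knockdown heads, against 0.20, 0 and 0 TPM in control heads. These levels rest on 39 reads in knockdown and 3 in control, a ratio of 14.0 with an exact 95% counting interval of 4.45 to 70.8 (edgeR adjusted p = 0.00783). The interval covers counting error only. The 3 control reads were all in replicate 1, the library with midgut and eggshell markers. The log2 fold change of Cpr78Ca was 3.67 ± 0.79, and over the alternatives it ran from 2.85, on log2(TPM + 0.1), to 7.01.

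The other calls at ZT16 ended in several of the fits that left out a single library. Cpr11B (chromosome X, 12553124 to 12554235) had 15.95, 12.4 and 10.4 TPM in knockdown heads and 5.43, 6.72 and 7.01 TPM in control heads, with no overlap. Its log2 fold change was 1.06 ± 0.33 (edgeR adjusted p = 0.0442), and the call held only without replicate 1 or 2 of control ZT8 or replicate 1 or 3 of knockdown ZT8. Without any other library the adjusted p of Cpr11B was 0.0507 to 0.148. With limma on log2(TPM + 0.1) it was 0.0562, and with no filter on low counts 0.0628. Cpr49Ab had 0.08, 0.08 and 0.07 TPM in knockdown heads, against 40.4, 1.35 and 0.22 TPM in control heads, where replicate 1 held 574 of 595 reads. The ratio of its 3 knockdown reads to 595 control reads was 0.00543, with an exact 95% counting interval of 0.00112 to 0.0159, which pools libraries and covers counting error only. The edgeR log2 fold change was -7.38 ± 2.05, and -3.16 without replicate 1 of control ZT16. Its edgeR adjusted p of 0.0325 became 0.0605 without replicate 1 of control ZT16, 0.104 without replicate 1, 0.0992 without replicate 2 and 0.102 without replicate 3 of knockdown ZT16. Cpr49Ah had 0.14, 0.31 and 0.22 TPM in knockdown heads, against 1.56, 0.92 and 0.77 TPM in control heads, without overlap. It fell by 2.19 ± 0.62 on the log2 scale (edgeR adjusted p = 0.0277), a call that ended without replicate 1 of control ZT16 (0.0838) or replicate 1 (0.117), 2 (0.064) or 3 (0.0972) of knockdown ZT16. With no filter on low counts the adjusted p was 0.0522 for Cpr49Ab and 0.0562 for Cpr49Ah, and with limma on log2(TPM + 0.1) it was 0.0923 for Cpr49Ab.

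**Figure D3:**
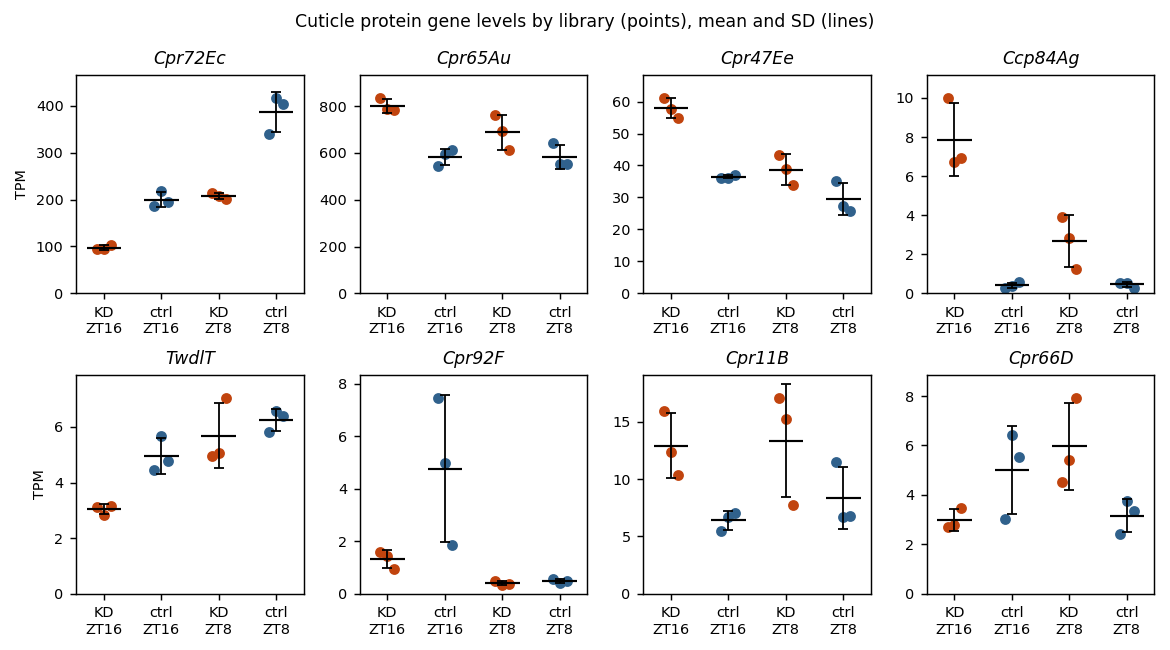
Points are the TPM of 8 cuticle protein genes in each library, with the knockdown in red and the control in blue, and lines are the mean and SD of 3 libraries (KD, knockdown; ctrl, control). Cpr72Ec is lower and Ccp84Ag higher in every knockdown library than in every control library of the same time.

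At ZT8, in the light phase, 8 of the 35 tested members were called, against 15.6% of all tested genes. In knockdown heads 6 were higher, against 8.84% of all tested genes, and 2 lower, against 6.76%. The median log2 fold change was 0.24 over the tested members and -0.01 over all tested genes. Ccp84Ag, Cpr47Ef, Cpr66D, Cpr47Ee, Cpr65Au and Cpr73D rose, and Cpr49Af and Cpr72Ec fell. The count was 11 without replicate 1, 3 without replicate 2 and 4 without replicate 3 of control ZT8, where 25.2%, 6.21% and 6.76% of all tested genes were called. It was 5 without replicate 1 or without replicate 2 of knockdown ZT8, where 8.49% and 9.26% were called.

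Ccp84Ag had 3.92, 2.84 and 1.25 TPM in knockdown heads at ZT8 and 0.55, 0.53 and 0.30 TPM in control heads. Knockdown replicate 3 was the nearest to the controls and still above all of them. The gene rose by a log2 fold change of 2.66 ± 0.42, a fold of 6.3 (edgeR adjusted p = 0.00213). Cpr72Ec had 215, 207 and 201 TPM in knockdown heads and 339, 417 and 404 TPM in control heads. It fell to 0.592 times the control level without overlap, a log2 fold change of -0.76 ± 0.057 (edgeR adjusted p = 7.65e-06).

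Cpr47Ef (chromosome 2R, 11266915 to 11272575), which lies beside Cpr47Ee, had 8.28, 9.17 and 8.20 TPM in knockdown heads at ZT8 and 5.05, 3.64 and 3.01 TPM in control heads. The groups did not overlap, and it rose by 1.26 ± 0.25 on the log2 scale (edgeR adjusted p = 0.00822). The call ended without replicate 2 of control ZT8 (adjusted p = 0.0546). Cpr66D (chromosome 3L, 8640439 to 8643584), also known from the corneal lens, had 4.54, 5.43 and 7.91 TPM in knockdown heads and 2.42, 3.74 and 3.33 TPM in control heads, also without overlap. Its log2 fold change was 1.06 ± 0.27 (edgeR adjusted p = 0.0211), and the call ended without replicate 2 (0.0522) or 3 (0.0641) of knockdown ZT8 or replicate 2 (0.058) or 3 (0.0761) of control ZT8. Cpr73D had 18.95, 19.1 and 20.2 TPM in knockdown heads and 16.3, 17.2 and 17.9 TPM in control heads. This small difference passed the test on counts (log2 fold change 0.33 ± 0.065, edgeR adjusted p = 0.00697) and not on log2(TPM + 0.1) with limma (0.18, adjusted p = 0.113). Exons of Ogdh lie opposite 9.70% of the exon bases of Cpr73D, and reads there cannot be told apart if strand was not used.

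Cpr49Af (chromosome 2R, 12405932 to 12407045) had 4.99, 6.15 and 3.95 TPM in knockdown heads at ZT8 and 12.4, 9.81 and 11.2 TPM in control heads. It fell without overlap, by 1.02 ± 0.28 on the log2 scale (edgeR adjusted p = 0.031). Its call ended without replicate 1 (0.0993) or 3 (0.0902) of knockdown ZT8 or replicate 1 (0.0651), 2 (0.0673) or 3 (0.0923) of control ZT8. Cpr47Ee and Cpr65Au overlapped between the groups at ZT8, since replicate 1 of control was above replicate 3 of knockdown for each. Cpr47Ee had a log2 fold change of 0.52 ± 0.14 (edgeR adjusted p = 0.0341), and the call held without replicate 1 or 2 of control ZT16, replicate 1 of control ZT8 or replicate 3 of knockdown ZT8. Without any other library its adjusted p was 0.0508 to 0.144. Cpr65Au had a log2 fold change of 0.36 ± 0.11 (edgeR adjusted p = 0.0468), and the call held only without replicate 1 of control ZT8 or replicate 3 of knockdown ZT8. Without any of the other 10 libraries the adjusted p of Cpr65Au was 0.0591 to 0.183. In a fit of the 6 ZT8 libraries alone the adjusted p was 0.161 for Cpr65Au and 0.143 for Cpr47Ee, and with no filter on low counts it was 0.0659 and 0.0533. For Cpr65Au it was also 0.0513 with RLE factors and 0.0643 with limma on log2(TPM + 0.1).

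**Figure D4:**
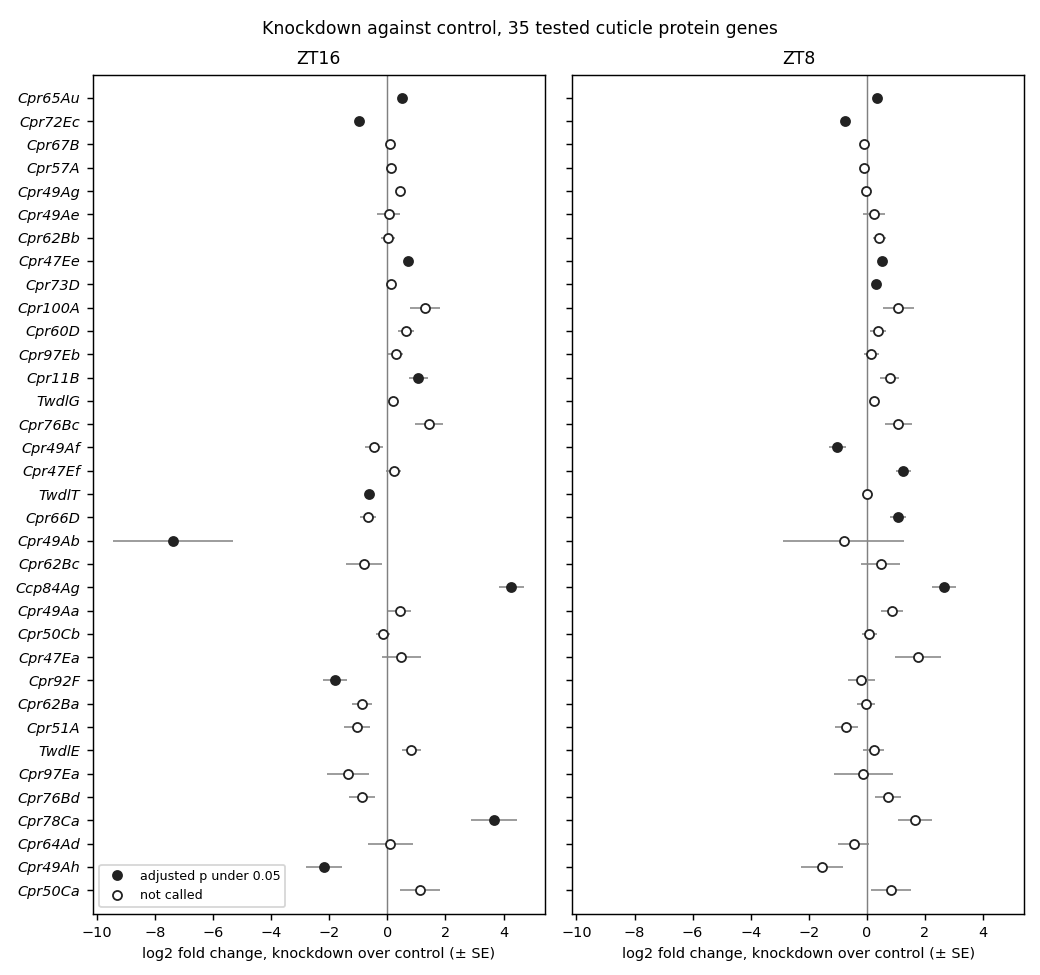
Points are log2 fold changes of knockdown over control for the 35 tested cuticle protein genes, with lines for the SE, at ZT16 (left) and ZT8 (right), and filled points have an edgeR adjusted p under 0.05. Ccp84Ag, Cpr65Au and Cpr47Ee lie to the right of 0 and Cpr72Ec to the left, filled, in both panels.

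Ccp84Ag, Cpr47Ee, Cpr65Au and Cpr72Ec were the 4 members called at both times, each in the same direction. They were 11.4% of the tested members, against 6.25% of all tested genes. The comparisons at ZT16 and ZT8 share no library, but they come from the same fit with a shared estimate of the spread. Both compare the same genotypes, so they are not independent repeats. Over both times together, 16 of the 35 tested members were called, against 28.8% of all tested genes. In knockdown heads 10 were higher, against 14.7% of all tested genes, and 6 lower, against 14.1%, with a median log2 fold change of 0.21 over the members and -0.01 over all genes. Ccp84Ag rose by 3.46 ± 0.31, Cpr78Ca by 2.66 ± 0.49 (2.03 to 4.33 over the alternatives), Cpr76Bc by 1.26 ± 0.33, Cpr11B by 0.92 ± 0.23, Cpr47Ef by 0.74 ± 0.18, Cpr47Ee by 0.62 ± 0.10 and Cpr65Au by 0.43 ± 0.076 on the log2 scale. Cpr73D at 0.22 ± 0.047 and TwdlG at 0.22 ± 0.058 were called on counts and not with limma on log2(TPM + 0.1), at adjusted p = 0.105 and 0.177. Cpr72Ec fell by 0.87 ± 0.040 and Cpr49Af by 0.74 ± 0.21. The edgeR adjusted p was 5.95e-08 for Cpr72Ec, 1.31e-05 for Ccp84Ag, 0.00148 for Cpr47Ee and 0.00207 for Cpr65Au.

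Cpr76Bc (chromosome 3L, 19520945 to 19527272) was called only over both times. It had 13.5, 11.8 and 9.43 TPM in knockdown heads and 4.01, 4.71 and 4.51 TPM in control heads at ZT16, and 12.6, 9.21 and 5.5 TPM in knockdown heads and 8.23, 2.82 and 2.66 TPM in control heads at ZT8. The groups overlapped at ZT8, through replicate 1 of control, and not at ZT16 (edgeR adjusted p = 0.0185 over both times). Cpr100A (1.19 ± 0.37, edgeR adjusted p = 0.0407) was also called only here, and its call held without replicate 2 of control ZT16, replicate 1 of control ZT8 or replicate 3 of knockdown ZT8. Without any other library its adjusted p was 0.0654 to 0.104, and with no filter on low counts 0.0706.

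The falls of Cpr51A, Cpr92F, TwdlT and Cpr49Ah over both times each lost their call when certain single libraries were left out. Cpr51A (-0.88 ± 0.30, edgeR adjusted p = 0.0452) held only without replicate 1 of knockdown ZT16 or replicate 3 of control ZT16, and was at 0.0663 to 0.105 otherwise. It was at 0.053 with DESeq2, at 0.0818 with no filter on low counts and at 0.06 with the replicate block. Cpr92F (-1.0 ± 0.31, edgeR adjusted p = 0.0339) held without replicate 1 of knockdown ZT16, replicate 3 of control ZT16, replicate 1 of knockdown ZT8 or replicate 2 of control ZT8, and was at 0.0533 to 0.072 otherwise. TwdlT (-0.32 ± 0.095, edgeR adjusted p = 0.0252) held without replicate 3 of knockdown ZT16, replicate 1 or 3 of control ZT16, replicate 3 of knockdown ZT8 or replicate 1 of control ZT8, and was at 0.052 to 0.0643 otherwise. Cpr49Ah (-1.86 ± 0.48, edgeR adjusted p = 0.0134) was at 0.0512 without replicate 3 of control ZT8.

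Time of day was compared next, in each genotype. All ZT16 libraries had fewer reads than all ZT8 libraries, and library names were written differently at ZT16 and at ZT8. Whether the times were prepared or sequenced apart is not given, and such a difference cannot be told apart from time of day. In knockdown heads, 12 of the 35 tested members were called between ZT16 and ZT8, against 23.2% of all tested genes. At ZT16, 5 were higher, against 11.8% of all tested genes, and 7 lower, against 11.4%. The median log2 fold change was 0.03 over the members and -0.01 over all tested genes. Cpr92F, Ccp84Ag, TwdlE, Cpr97Eb and Cpr47Ee rose, and Cpr62Ba, Cpr72Ec, Cpr66D, TwdlT, Cpr47Ef, TwdlG and Cpr73D fell.

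Cpr72Ec had 93.9 to 103 TPM in knockdown heads at ZT16 and 201 to 215 TPM at ZT8, without overlap. It fell to 0.49 times the ZT8 level, a log2 fold change of -1.03 ± 0.058 (edgeR adjusted p = 6.48e-07). Cpr62Ba (chromosome 3L, 1824129 to 1831783), a low member of the Cpr62B cluster, had 0.67, 0.52 and 0.87 TPM at ZT16 and 3.04, 2.24 and 1.33 TPM at ZT8. It fell by 1.62 ± 0.33 on the log2 scale, again without overlap (edgeR adjusted p = 0.00486). TwdlT had 2.84 to 3.16 TPM at ZT16 and 4.97 to 7.03 TPM at ZT8, and fell by 0.84 ± 0.14 (edgeR adjusted p = 0.00117). Ccp84Ag had 6.71 to 10 TPM at ZT16 and 1.25 to 3.92 TPM at ZT8, and rose by 1.60 ± 0.36 (edgeR adjusted p = 0.00812). TwdlE (chromosome 2L, 7857957 to 7860839) had 1.5, 1.31 and 1.36 TPM at ZT16 and 0.45, 0.75 and 0.28 TPM at ZT8, without overlap. It rose by 1.54 ± 0.33 (edgeR adjusted p = 0.00635), and its overlap with lectin-28C applies here too.

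The other calls in knockdown heads were smaller or ended in fits that left out a single library. Cpr47Ee had 54.8 to 61.1 TPM at ZT16 and 33.8 to 43.3 TPM at ZT8, and rose by 0.64 ± 0.14 (edgeR adjusted p = 0.0093). Cpr92F rose by 1.80 ± 0.45 (edgeR adjusted p = 0.0154; 0.0517 without replicate 2 of knockdown ZT8). Cpr97Eb rose by 0.93 ± 0.27 (edgeR adjusted p = 0.0287), which ended without replicate 1 (0.109) or 2 (0.0757) of knockdown ZT16 or replicate 2 (0.0636) or 3 (0.0887) of knockdown ZT8. TwdlG fell by 0.34 ± 0.082 (edgeR adjusted p = 0.0111; 0.0542 without replicate 3 of knockdown ZT16). Cpr73D fell by 0.24 ± 0.066 (edgeR adjusted p = 0.0207; 0.0998 without replicate 1 of knockdown ZT16 and 0.0617 without replicate 3 of knockdown ZT8). Cpr66D fell by 0.94 ± 0.27 (edgeR adjusted p = 0.0281), which ended without replicate 1 (0.109), 2 (0.0891) or 3 (0.0515) of knockdown ZT16 or replicate 2 (0.052) or 3 (0.103) of knockdown ZT8. Cpr47Ef fell by 0.83 ± 0.25 (edgeR adjusted p = 0.0361), which held without replicate 3 of knockdown ZT16, replicate 1 or 2 of control ZT16, or replicate 1 or 3 of control ZT8. Without any other library the adjusted p of Cpr47Ef was 0.0516 to 0.141, with no filter on low counts 0.0569 and with the replicate block 0.0658.

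In control heads, 11 of the 35 tested members were called between ZT16 and ZT8, against 23.7% of all tested genes. At ZT16, 6 were higher, against 12.0% of all tested genes, and 5 lower, against 11.8%, on counts, while limma on log2(TPM + 0.1) called 5 higher and 8 lower. The median log2 fold change was 0.20 over the members and 0.02 over all tested genes. Cpr49Ab, Cpr97Ea, Cpr92F, Cpr62Bc, Cpr47Ea and Cpr49Ah rose, and Cpr64Ad, Cpr72Ec, Cpr49Ag, Cpr67B and TwdlG fell. The count was 7 without replicate 1 of knockdown ZT16, where 20.3% of all tested genes were called, and 7 without replicate 1 of knockdown ZT8, where 21.1% were called. It was 5 without replicate 2 or without replicate 3 of control ZT8, where 14.1% and 15.6% were called.

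Cpr72Ec had 186 to 218 TPM in control heads at ZT16 and 339 to 417 TPM at ZT8, without overlap. It fell to 0.57 times the ZT8 level, a log2 fold change of -0.81 ± 0.057 (edgeR adjusted p = 3.27e-06). Cpr67B, the third most abundant member, had 125, 140.4 and 127 TPM at ZT16 and 151.2, 210.4 and 216 TPM at ZT8. It fell by 0.42 ± 0.091 without overlap (edgeR adjusted p = 0.00681). Cpr92F had 7.44, 4.98 and 1.87 TPM at ZT16 and 0.54, 0.42 and 0.49 TPM at ZT8. All ZT16 libraries were above all ZT8 libraries, with a log2 fold change of 3.42 ± 0.45, a fold of 10.7 (edgeR adjusted p = 4.00e-04). Cpr49Ag had 49.3, 46.7 and 41.6 TPM at ZT16 and 84.9, 71.3 and 73.9 TPM at ZT8. It fell by 0.63 ± 0.16 (edgeR adjusted p = 0.0149; 0.0538 without replicate 3 of control ZT16). TwdlG fell by 0.30 ± 0.083 (edgeR adjusted p = 0.0206), which ended without replicate 1 of control ZT16 (0.0718) or replicate 2 (0.0637) or 3 (0.0572) of control ZT8, or in a fit of the 6 control libraries alone (0.0502). Cpr72Ec, Cpr92F and TwdlG were the members called with time in both genotypes, in the same direction in each. They were 8.57% of the tested members, against 10.3% of all tested genes.

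The other rises in control heads involved the replicates of ZT16 that were high for those genes. Cpr97Ea had 0.34, 4.86 and 0.84 TPM at ZT16 and 0.14, 0.15 and 0.18 TPM at ZT8, with replicate 2 highest. Its log2 fold change was 3.75 ± 0.84 (edgeR adjusted p = 0.00906; 0.0702 in a fit of the 6 control libraries alone), and 2.05 without replicate 2 of control ZT16. Cpr62Bc had 2.95, 17.0 and 2.62 TPM at ZT16 and 1.37, 1.25 and 1.21 TPM at ZT8. Its log2 fold change of 2.51 ± 0.66 (edgeR adjusted p = 0.0203) became 0.0769 in adjusted p without replicate 2 and 0.0724 without replicate 3 of control ZT8. The log2 fold change was 1.13 without replicate 2 of control ZT16, and the adjusted p was 0.0982 in a fit of the 6 control libraries alone. Cpr47Ea had 5.77, 1.24 and 0.52 TPM at ZT16 and 0.79, 0.38 and 0.31 TPM at ZT8, with overlap. Its call (2.46 ± 0.78, edgeR adjusted p = 0.042) held only without replicate 2 or 3 of control ZT16 or replicate 1 of control ZT8, and was at 0.0513 to 0.273 otherwise. Cpr49Ab had 40.4, 1.35 and 0.22 TPM at ZT16 and 0.76, 0.18 and 0.24 TPM at ZT8, also with overlap. Its call (5.25 ± 1.61, edgeR adjusted p = 0.0437) held only without replicate 2 or 3 of control ZT16, and its adjusted p was 0.371 without replicate 1, the library with midgut and eggshell markers, and at least 0.0664 without any other. Its log2 fold change was 1.04 without that replicate, and that of Cpr47Ea was 0.91. In other fits the adjusted p of Cpr47Ea was 0.0573 with no filter on low counts, 0.107 with limma on log2(TPM + 0.1) and 0.151 in the 6 control libraries alone, and that of Cpr49Ab was 0.0779, 0.209 and 0.193.

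Cpr49Ah had 1.56, 0.92 and 0.77 TPM in control heads at ZT16 and 0.29, 0.20 and 0.59 TPM at ZT8. It rose by 1.71 ± 0.56 (edgeR adjusted p = 0.0458), a call that held only without replicate 2 of knockdown ZT8 and was at 0.0552 to 0.176 without any other library. Cpr64Ad had 0.12, 0.32 and 0.18 TPM at ZT16 and 1.19, 0.62 and 0.72 TPM at ZT8. It fell by 1.89 ± 0.63 (edgeR adjusted p = 0.0492), a call that held only without replicate 2 of knockdown ZT16 and was at 0.06 to 0.144 otherwise. Both genes lie under the expression criterion, and in neither did the groups overlap. With no filter on low counts the adjusted p was 0.104 for Cpr49Ah and 0.0911 for Cpr64Ad, and with the replicate block 0.0593 and 0.0696. For Cpr49Ah it was 0.0544 in a fit of the 6 control libraries alone.

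**Figure D5:**
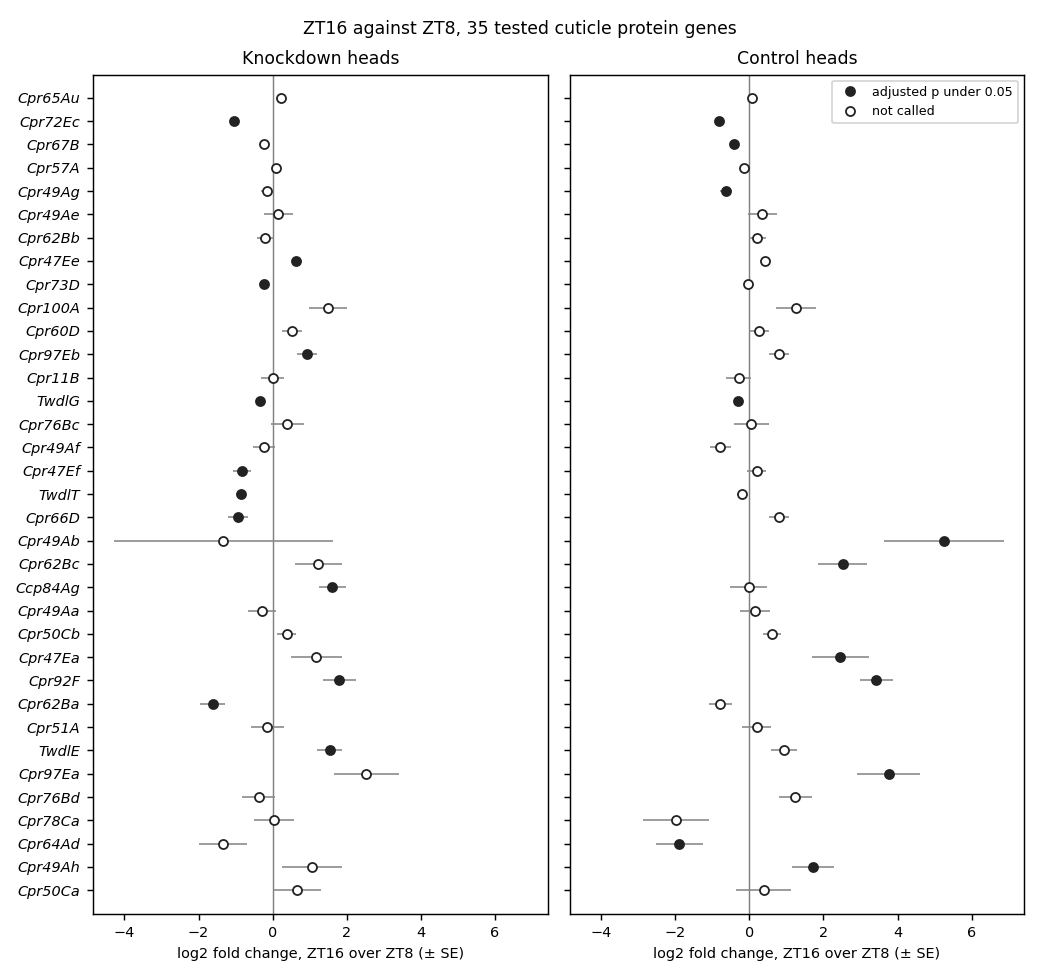
Points are log2 fold changes of ZT16 over ZT8 for the 35 tested cuticle protein genes, with lines for the SE, in knockdown heads (left) and control heads (right), and filled points have an edgeR adjusted p under 0.05. Cpr72Ec lies to the left of 0 and Cpr92F to the right, filled, in both panels.

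Whether the knockdown effect differed between the times was tested as the effect at ZT16 minus that at ZT8. Among the 35 tested members 1 was called, against 4.18% of all tested genes (2.67% higher and 1.51% lower), and 8 had an unadjusted p under 0.05 (22.9%, against 21.8% of all tested genes). The called member was Cpr66D, with 2.69, 2.79 and 3.48 TPM in knockdown heads and 3.02, 6.44 and 5.54 TPM in control heads at ZT16, and 4.54, 5.43 and 7.91 TPM in knockdown heads and 2.42, 3.74 and 3.33 TPM in control heads at ZT8. The knockdown libraries were the higher ones at ZT8 and mostly the lower ones at ZT16, where the groups overlapped. The effect was -0.68 ± 0.28 at ZT16, which was not called (edgeR adjusted p = 0.0966), and 1.06 ± 0.27 at ZT8, a difference of -1.74 ± 0.38 (edgeR adjusted p = 0.0354). The call of the difference held only without replicate 1 of control ZT16 or replicate 1 of control ZT8, with an adjusted p of 0.051 to 0.117 without any other library and 0.0813 with limma on log2(TPM + 0.1). For Ccp84Ag the difference between the times was 1.62 ± 0.62 (edgeR adjusted p = 0.155), for TwdlT -0.65 ± 0.19 (edgeR adjusted p = 0.0762) and for Cpr72Ec -0.22 ± 0.080 (edgeR adjusted p = 0.139).

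Of the 35 tested members, 27 (77.1%) were called in at least 1 of the 6 comparisons, against 53.7% of all tested genes. The 8 called in none were Cpr49Aa, Cpr49Ae, Cpr50Ca, Cpr50Cb, Cpr57A, Cpr60D, Cpr62Bb and Cpr76Bd. Cpr57A had log2 fold changes of 0.11 ± 0.073 at ZT16 and -0.10 ± 0.072 at ZT8 in knockdown over control, with edgeR adjusted p of 0.289 and 0.397. Cpr49Ae was at 0.04 ± 0.39 and 0.24 ± 0.39 in the same comparisons, with edgeR adjusted p of 0.948 and 0.727, so that its spread allowed much larger changes than that of Cpr57A.

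Other structural cuticle genes, a list of 26 that includes the Lcp and Vajk genes, had 13 tested members. At ZT16 and at ZT8, 3 of these rose in knockdown heads and none fell, when 11.2% of all tested genes were called higher and 11.0% lower at ZT16, and 8.84% higher and 6.76% lower at ZT8. They were the same genes at both times: Vajk4, of a family of cuticle genes, Lcp65Ag2, a larval cuticle protein gene, and Edg78E, an ecdysone-dependent pupal cuticle gene. Lcp65Ag2 had 28.9, 27.7 and 30.6 TPM in knockdown heads and 2.87, 4.49 and 6.05 TPM in control heads at ZT16, and 26.4, 20.7 and 11.5 TPM in knockdown heads and 7.48, 5.47 and 4.37 TPM in control heads at ZT8. The groups were apart at each time, with log2 fold changes of 2.78 ± 0.36 at ZT16 (edgeR adjusted p = 4.39e-04) and 1.88 ± 0.34 at ZT8 (edgeR adjusted p = 0.00471). It has close copies, so reads may be divided among them. Vajk4 rose by 1.89 ± 0.16 at ZT16 and 1.46 ± 0.16 at ZT8, and Edg78E by 1.05 ± 0.33 and 1.05 ± 0.29.

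Acp1, an adult cuticle protein gene, had 155, 134 and 83.1 TPM in knockdown heads at ZT16 and 27.7, 18.7 and 8.54 TPM at ZT8. In control heads it had 69.4, 333 and 49.1 TPM at ZT16 and 13.0, 6.29 and 5.00 TPM at ZT8. It was higher in every ZT16 library than in every ZT8 library, in both genotypes, with log2 fold changes of 2.81 ± 0.81 in knockdown heads (edgeR adjusted p = 0.0373) and 4.29 ± 0.88 in control heads (edgeR adjusted p = 0.00918). Replicate 2 of control ZT16, high for Cpr100A and Cpr62Bc, was also the highest for Acp1. Vajk3 (2.86 ± 0.75, edgeR adjusted p = 0.0247) and Acp65Aa (4.78 ± 1.54, edgeR adjusted p = 0.0499) also rose in control heads. Vajk3 had 3.55, 36.4 and 8.91 TPM in control heads at ZT16 and 3.17, 2.00 and 2.02 TPM at ZT8, with replicate 2 highest and replicate 1 close to ZT8. Acp65Aa stood at 28.2 TPM in replicate 1 of control ZT16, the library with midgut and eggshell markers, against at most 1.08 TPM in any other library.

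Chitin synthesis, a list of 10 tested genes, had none called at ZT8 and 2 higher and 2 lower in knockdown heads at ZT16. Of these, exp, needed for chitin deposition, rose by 0.59 ± 0.14 while knk fell by 0.44 ± 0.11 and Chs2, a chitin synthase gene, by 2.45 ± 0.68. Chs2 had 0.12, 0.12 and 0.08 TPM in knockdown heads and 1.32, 0.28 and 0.18 TPM in control heads at ZT16. Its highest value was in replicate 1 of control ZT16, the library with midgut and eggshell markers. The other chitin synthase gene, kkv, was at 0.40 to 1.71 TPM throughout. Chitin binding and turnover, with 20 tested genes, had 7 higher and 3 lower in knockdown heads at ZT16, when 11.2% and 11.0% of all tested genes were called higher and lower. At ZT8 it had 4 higher and 1 lower, when 8.84% and 6.76% were. The chitin deacetylase genes serp (1.3 ± 0.19 at ZT16, 0.69 ± 0.19 at ZT8), verm (0.94 ± 0.15 and 0.65 ± 0.15) and Cda5 (0.96 ± 0.11 and 0.46 ± 0.11) rose at both times. The chitinase gene Cht6 rose by 0.70 ± 0.11 at ZT16, and obst-B, which encodes a chitin-binding protein, by 1.01 ± 0.33 at ZT16 and 1.52 ± 0.33 at ZT8. Cda5 had 25.5, 23.6 and 24.1 TPM in knockdown heads and 11.8, 14.8 and 12.8 TPM in control heads at ZT16. Gasp, which encodes a chitin-binding protein of the tracheal cuticle, rose by 0.49 ± 0.12 at ZT16 and fell by 0.40 ± 0.11 at ZT8, and the difference between the times passed the test (0.89 ± 0.16, edgeR adjusted p = 0.0234).

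In sclerotization and pigmentation, 12 tested genes, ple and Ddc were the genes that rose in knockdown heads at both times, and yellow-d fell at ZT16. They encode tyrosine hydroxylase and dopa decarboxylase, which make the catecholamines that harden cuticle and also serve neurons. The log2 fold changes were 0.49 ± 0.14 for ple and 0.18 ± 0.053 for Ddc at ZT16, and 0.50 ± 0.14 and 0.18 ± 0.053 at ZT8. Of 7 tested genes for ZP-domain proteins of the apical matrix, tyn (0.47 ± 0.10) and cyr (0.84 ± 0.24) were higher and m (-1.42 ± 0.36) lower at ZT16, and cyr (0.91 ± 0.27) was higher at ZT8. Of 6 regulators of epidermis and cuticle, grh fell at ZT16 (-0.17 ± 0.045) and ftz-f1 at ZT8 (-0.17 ± 0.048). Beside the calls in these lists, 11.2% of all tested genes were called higher and 11.0% lower at ZT16, and 8.84% and 6.76% at ZT8.

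Cpr72Ec and Cpr66D are the members known from the corneal lens, and their log2 fold changes in knockdown heads were -0.98 and -0.68 at ZT16 and -0.76 and 1.06 at ZT8, of which -0.68 for Cpr66D was not called. The genes retinin and Crys, which encode further lens proteins, were chosen after their values were seen. In knockdown heads at ZT16, retinin had 2784, 2501 and 2171 TPM, against 1469, 1637 and 1492 TPM in control heads. It rose there by 0.76 ± 0.090 (edgeR adjusted p = 2.64e-04), while at ZT8 it had 1551, 1415 and 1404 TPM in knockdown heads and 1887, 1850.2 and 1783 TPM in control heads (-0.21 ± 0.090, edgeR adjusted p = 0.147). Crys had 26.2, 17.4 and 16.9 TPM in knockdown heads and 2.95, 9.58 and 3.29 TPM in control heads at ZT16, and rose by 1.97 ± 0.60 (edgeR adjusted p = 0.0461). At ZT8 it was at 1.05 to 5.08 TPM in knockdown heads and 1.40 to 3.13 TPM in control heads, which did not pass (edgeR adjusted p = 0.502).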

How the data were processed

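Messenger RNA of fly heads was sequenced in 12 libraries, with RNA extracted with QIAzol and the TruSeq Stranded mRNA kit, per the labels' protocols. Per the submitters' processing notes, the authors used STAR 2.6.0c, RSEM 1.3.1 and dm6. The authors deposited expected counts (whole numbers), FPKM and TPM for 35536 transcripts. FPKM, computed by the authors, was not used, and the deposited TPM were summed per gene for levels. Column names of control ZT16 lacked a digit of the library names and were matched by time and number.

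Expected counts were summed per gene and fitted with edgeR 4.0.16 (R 4.3.3): filterByExpr at a minimum count of 10, TMM, 4 group means over 12 libraries, 8 residual degrees of freedom and robust quasi-likelihood F tests, 2-sided, with Benjamini-Hochberg adjustment. Standard errors came from F (the size of the log2 fold change over the root of F) and are rough for genes with few reads. Alternatives were RLE factors, no filter, DESeq2 1.42.0, limma 3.58.1 on log2(TPM + 0.1), a replicate block, the 6 libraries compared, and each library left out. On simulated counts for knockdown against control at ZT8, with 200 of 10717 genes changed, 80% of 2-fold changes were found, with 8 false calls. Counts were drawn separately for each gene and library, so shifts shared by many genes of a library were not simulated. These rates may not hold for the real libraries or for members with few reads.

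Coordinates are dm6, 1-based, and were the same in the table and in the Ensembl annotation. Named are the 12 most abundant members, the called members, those beside the expression criterion, CG5808, and up to 3 called genes of a list in a comparison. Genes called in no comparison and single genes given as examples, were named after their values were seen. The members and lists were chosen with earlier results of these data known.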

Additional observations from a re-analysis of the deposited data

Results flagged for a closer look

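The knockdown effect on Cpr66D differed between the times by -1.74 on the log2 scale (effect at ZT16 minus effect at ZT8, edgeR adjusted p = 0.0354), which marked it for a closer look. It stood at 2.69, 2.79 and 3.48 TPM in knockdown heads and 3.02, 6.44 and 5.54 TPM in control heads at ZT16, and at 4.54, 5.43 and 7.91 TPM in knockdown heads and 2.42, 3.74 and 3.33 TPM in control heads at ZT8. The difference kept its direction in every alternative run, from -1.98 to -1.50, and passed the threshold in 2 of the 12 fits that left out 1 library.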

How the results depend on the processing

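Of 58 calls of members over the 6 comparisons, 31 held with each of the 12 libraries left out, 26 held in every alternative run, and none changed direction. Calls lost numbered 12 with no filter on low counts, 9 with limma on log2(TPM + 0.1), 9 of 40 in fits of the 6 libraries compared, 4 with the replicate block, 1 with RLE and 1 with DESeq2. Leaving out 1 library gave 7 to 13 called members at ZT16, 3 to 11 at ZT8, 11 to 16 over both times, 8 to 15 with time in knockdown, 5 to 12 with time in control and 0 to 2 for the interaction. Over all genes it gave 1309 to 2759 at ZT16, 673 to 2735 at ZT8, 2264 to 3728 over both times, 1572 to 2871 with time in knockdown, 1532 to 2810 with time in control and 19 to 1107 for the interaction, and 28 or 29 members were expressed. With time in control, 7 members were called with no filter and 6 in the 6 libraries alone; for the interaction, 3 by DESeq2 and 0 by limma on TPM. All genes called were 871 at ZT8 in the 6 libraries alone, against 1671; for the interaction they were 240 with no filter, 918 by DESeq2, 73 by limma on TPM and 137 with the replicate block, against 448. On TPM, all genes called split into 621 higher and 1115 lower at ZT16 (1204 and 1175 on counts), 573 and 1760 at ZT8 (947 and 724), 862 and 2804 over both times (1574 and 1510), 654 and 1294 with time in knockdown (1268 and 1220), and 525 and 2284 with time in control (1281 and 1261). The cause was not tested. The replicate block called 13 members at ZT16, 8 at ZT8, 17 over both times, 13 with time in knockdown, 13 with time in control and 1 for the interaction. Correlations of same-numbered libraries ran from -0.20 to 0.40, over 0.1 in 7 of 18 pairs. At ZT8, knockdown and control correlated at 0.40 for replicate 1, -0.16 for replicate 2 and 0.29 for replicate 3. Knockdown replicate 3 and control replicate 2 correlated at 0.32. These values show no steady pairing by number and cannot exclude one. Library names at ZT8 carry partly other numbers, and pairing by those was not tested. For uncalled results, the sign was followed only for the 12 most abundant members, in knockdown against control at ZT16 and at ZT8. Among these it turned for Cpr49Ag at ZT8 (-0.14 to 0.12 with 1 library left out), Cpr97Eb at ZT8 (-0.012 on TPM, -0.014 to 0.37 with 1 library left out), Cpr49Ae at ZT16 (-0.15 to 0.47) and Cpr62Bb at ZT16 (-0.0270 on TPM, -0.11 to 0.19 with 1 library left out). Other uncalled results were not checked for a turned sign. Summing members with near-identical proteins was not run. Members near 1 TPM had few reads, which limits what could be detected for them.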
